A study of Homo sapiens with 12 samples.

Results

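The 10 genes described here encode the FOS proteins (FOS, FOSB, FOSL1, FOSL2), the JUN proteins (JUN, JUNB, JUND), the zinc finger factor EGR1 and the immediate early response genes IER2 and IER3. They were chosen by name, with earlier results of these data known. They make up 10 of 28265 genes in the expression table and 30 of 46178 regions in the m6A table. They were measured in HepG2, an established human liver tumour cell line, treated with toosendanin or labelled as control. Toosendanin is a triterpenoid from Melia toosendan, known for liver toxicity, and the series asks how it acts on liver tumour cells. Each condition has 3 libraries of RNA pulled down with an antibody against N6-methyladenosine (IP) and 3 of the RNA before the pull-down (input), 12 in all. The labels give neither a dose, a time nor a vehicle, and do not tell whether the libraries stem from separate cultures. The p-values of expression therefore cover the spread between these libraries alone, and that spread may be technical.

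AP-1 is a dimer of basic leucine zipper proteins. JUN proteins pair with each other or with FOS proteins, whereas FOS proteins need a JUN partner to bind DNA. FOS, JUN and EGR1 are the classic immediate early genes: growth factors and stress act through MAP kinases on factors already present, such as SRF with its ELK partners at CArG boxes, and the genes are switched on without new protein synthesis. Their mRNAs are short-lived. In liver, AP-1 and EGR1 are known for their rapid induction in regeneration and after injury.

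Per the authors' deposited table, the libraries carried the hepatocyte markers, all 8 of which had mean normalized counts between 5546 (TTR) and 411979 (APOB). The fibroblast markers COL1A1 and PDGFRA, the immune markers PTPRC and CD3E and the endothelial marker KDR were listed at 0 in the authors' deposited table, although the immune list also held LYZ at 49191. The m6A table holds 1 sum of counts per region, condition and kind of library. Over all regions the sums were 29094328 for toosendanin IP, 24253006 for toosendanin input, 42316089 for control IP and 34131862 for control input. No value per library was analysed here, so each condition has 1 summed value and the intervals given for summed counts cover counting error only.

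Within the window searched, the 3 genes with the largest changes do not share 1 motif. Their promoters are shown, and that of JUNB as a family member whose change was near 0. Each runs from 250 bases before to 50 bases after the RefSeq start, 5′ to 3′ on the gene's strand, in build GRCh38.p14: EGR1 at chr5:138465229-138465528 (plus strand), FOS at chr14:75278578-75278877 (plus strand), JUN at chr1:58783998-58784297 (minus strand) and JUNB at chr19:12791236-12791535 (plus strand). Capitals mark a match to any motif searched.
EGR1: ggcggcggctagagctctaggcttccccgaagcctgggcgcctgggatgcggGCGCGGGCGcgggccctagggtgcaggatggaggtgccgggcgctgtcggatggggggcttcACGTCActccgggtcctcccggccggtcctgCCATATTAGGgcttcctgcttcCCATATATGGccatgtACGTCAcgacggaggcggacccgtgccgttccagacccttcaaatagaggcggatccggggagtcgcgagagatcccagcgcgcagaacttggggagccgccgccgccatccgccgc
FOS: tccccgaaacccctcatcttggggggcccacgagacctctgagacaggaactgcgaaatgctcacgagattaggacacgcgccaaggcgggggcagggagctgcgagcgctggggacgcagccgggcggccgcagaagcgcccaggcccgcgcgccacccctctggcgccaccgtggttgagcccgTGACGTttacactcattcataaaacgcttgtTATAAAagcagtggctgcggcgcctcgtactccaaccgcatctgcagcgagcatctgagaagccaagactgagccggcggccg
JUN: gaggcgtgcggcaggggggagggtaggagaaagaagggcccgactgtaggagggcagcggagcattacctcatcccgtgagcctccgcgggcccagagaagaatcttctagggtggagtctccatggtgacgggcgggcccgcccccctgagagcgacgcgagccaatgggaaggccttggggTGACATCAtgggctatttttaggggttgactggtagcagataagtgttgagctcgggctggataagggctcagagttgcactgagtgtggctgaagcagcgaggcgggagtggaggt
JUNB: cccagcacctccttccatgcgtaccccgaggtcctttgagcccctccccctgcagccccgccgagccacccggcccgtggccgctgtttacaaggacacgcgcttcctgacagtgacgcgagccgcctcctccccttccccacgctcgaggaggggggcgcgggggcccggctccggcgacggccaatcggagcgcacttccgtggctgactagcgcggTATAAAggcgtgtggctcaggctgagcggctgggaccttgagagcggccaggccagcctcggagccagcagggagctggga

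In the EGR1 promoter the capitals mark, from left to right, an EGR1 site (GCGNGGGCG) at -198, a cAMP response core (TGACGT, here on the other strand) at -136, CArG boxes at -105 and -83, and a second such core at -67. The FOS promoter held the cAMP response core at -64 and a TATA box (TATAAA) at -33. JUN held none of these and only an 8-letter variant of the AP-1 site (TGANNTCA), TGACATCA, at -67, while JUNB held the TATA box alone, at -31. Positions are those of the first base relative to the start. Both strands were searched, and the core and the 8-letter variant were added after the promoters had been read.

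Across the 8 promoters that the RefSeq table holds, the CArG box was found in 1 (EGR1), against 1.29% of the 35116 promoters in the table. The cAMP response core was found in 5 of the 8 (EGR1, FOS, FOSB, FOSL2 and JUND), against 7.98% of all promoters. This core and the 8-letter variant were added after these promoters had been read, so their shares are no fair comparison. A TATA box stood in 3 (FOS, FOSB and JUNB), against 11.5%, and an ETS core (CCGGAA) in 2 (FOSB and IER2), against 17.2%. The 7-letter AP-1 site (TGANTCA) was found in FOSL2 alone, against 7.71%, the EGR1 site in EGR1 alone, against 9.43%, and the 8-letter variant in JUN and JUND, against 11.5%. The core lies within the TGACGTCA of JUND, which the 8-letter variant also matches. A match is a stretch of letters and was not tested for binding. Bases outside the window were not searched, so a site further out, a CArG box included, would be missed.

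EGR1, FOS and JUN rose after toosendanin, FOSL1 rose by a smaller amount, and the other FOS, JUN and IER genes did not pass the test or had none. On the DESeq2 adjusted p in the authors' deposited table, 4 of the 9 genes with an adjusted p were higher, beside 15.7% of all 16552 genes with one, and 0 were lower (0 also at an unadjusted p under 0.05), beside 15.7% of all genes. Their median log2 fold change in the authors' deposited table was 0.54, against -0.00023 over all genes with an adjusted p. The set was chosen with earlier results of these data known, so these contrasts are no test of it. Fold changes below are on the log2 scale, toosendanin over control, with the standard error after ±. In bulk RNA, more cells with a transcript and more transcript per cell cannot be told apart.

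**Figure D1:**
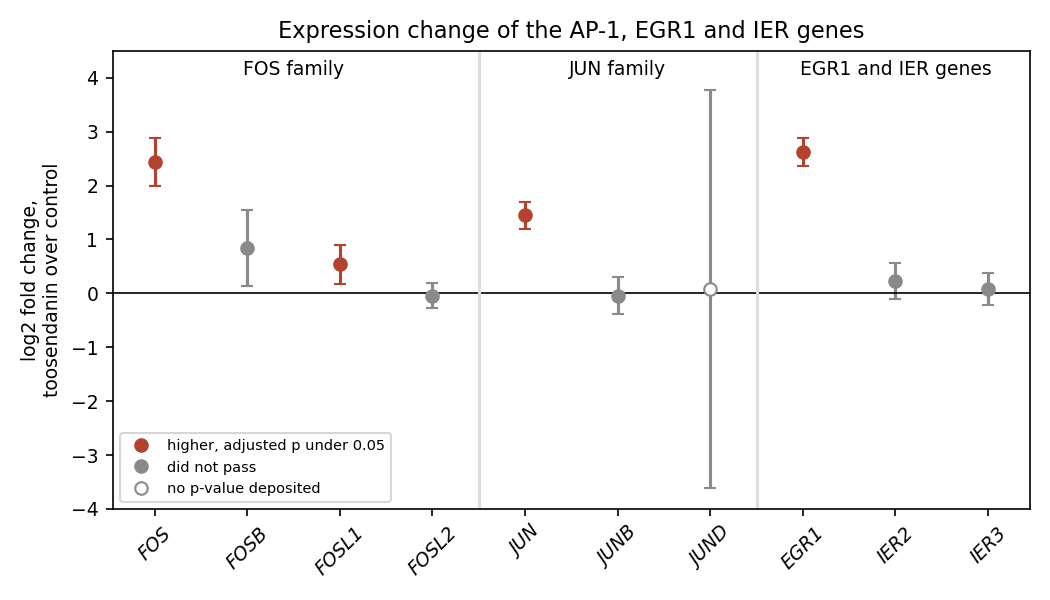
Expression change of the 10 genes: points give the log2 fold change of the authors' deposited table and bars its 95% interval, with genes by family on the x axis. EGR1, FOS and JUN stand above 1, FOSL1 and FOSB between 0.5 and 0.9, and the bar of JUND, which has no p-value, reaches from -3.61 to 3.78.

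Among the FOS proteins, FOS itself had 468 summed input counts in toosendanin and 113 in control, or 19.3 against 3.31 counts per 1000000 of the column's total (CPM). The log2 fold change in the authors' deposited table was 2.43 ± 0.23, a 5.40-fold rise (DESeq2 adjusted p = 1.21e-24). FOS, whose mRNA and protein are short-lived, had the largest change of its family. FOSL1, also called FRA-1 and known for sustained expression in many tumour cells, had 11.7 input CPM in toosendanin and 7.56 in control. Its rise in the authors' deposited table was 0.54 ± 0.18 (DESeq2 adjusted p = 0.0128).

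FOSB, known best from the nervous system, had 63 summed input counts in toosendanin and 47 in control, the fewest of the genes with a region. It stood at 0.84 ± 0.36 in the authors' deposited table and did not pass (DESeq2 adjusted p = 0.058, unadjusted p = 0.0188). FOSL2, or FRA-2, showed no such gap, with 826 summed input counts in toosendanin and 1197 in control, or 34.1 CPM in toosendanin and 35.1 in control. Its log2 fold change in the authors' deposited table was -0.05 ± 0.12, with an interval from -0.28 to 0.19. The change of FOS exceeded that of FOSL1 by 1.90 (95% interval 1.32 to 2.47), that of FOSB by 1.59 (0.76 to 2.43) and that of FOSL2 by 2.48 (1.97 to 2.99), computed from the authors' deposited table as if the fits were independent.

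Among the JUN proteins, JUN, the main transactivating partner of FOS, had 7112 summed input counts in toosendanin and 3508 in control, or 293.2 against 102.8 CPM. Its rise in the authors' deposited table was 1.44 ± 0.13, or 2.72-fold (DESeq2 adjusted p = 3.39e-27). JUNB, which can oppose JUN at some promoters, showed nothing of the kind: 9.77 input CPM in toosendanin against 10.9 in control, and -0.04 ± 0.18 in the authors' deposited table (DESeq2 adjusted p = 0.90). The change of JUN exceeded that of JUNB by 1.49 (1.06 to 1.91), computed from the authors' deposited table.

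JUND, the JUN protein that is present in most resting cells, had an imprecise deposited change. Its 95% interval, from -3.61 to 3.78, also holds the summed-input value given below. The authors' deposited table listed it at 0.08 ± 1.88 with no p-value, at a mean normalized count of 3955. Its standard error is to be read against a median of 0.07 over the 1505 genes with a mean at least as high. DESeq2 leaves the p-value of a counted gene blank when a library holds a count far from the others, and 29 of 19106 counted genes had none in the authors' deposited table. JUND had the highest mean of those 29, ahead of RGPD5 at 483.4. Counts per library of JUND were not analysed here.

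In the m6A table JUND had 8389 summed input counts in toosendanin and 5007 in control, or 345.9 against 146.7 CPM. Centred on the median gene, its summed input was 1.23 higher on the log2 scale (95% counting interval 1.18 to 1.28). The IP libraries, which are separate libraries per the labels, gave 11058 summed counts in toosendanin and 6590 in control, 1.25 higher after centring (1.21 to 1.30). For JUN the same 2 values were 1.51 and 1.35, and for JUNB -0.16 and 0.12. IP and input libraries may stem from the same RNA, so the IP sums are no independent evidence. The summed values carry no spread between libraries and no test, and whether 1 library shifts them was not tested.

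**Figure D2:**
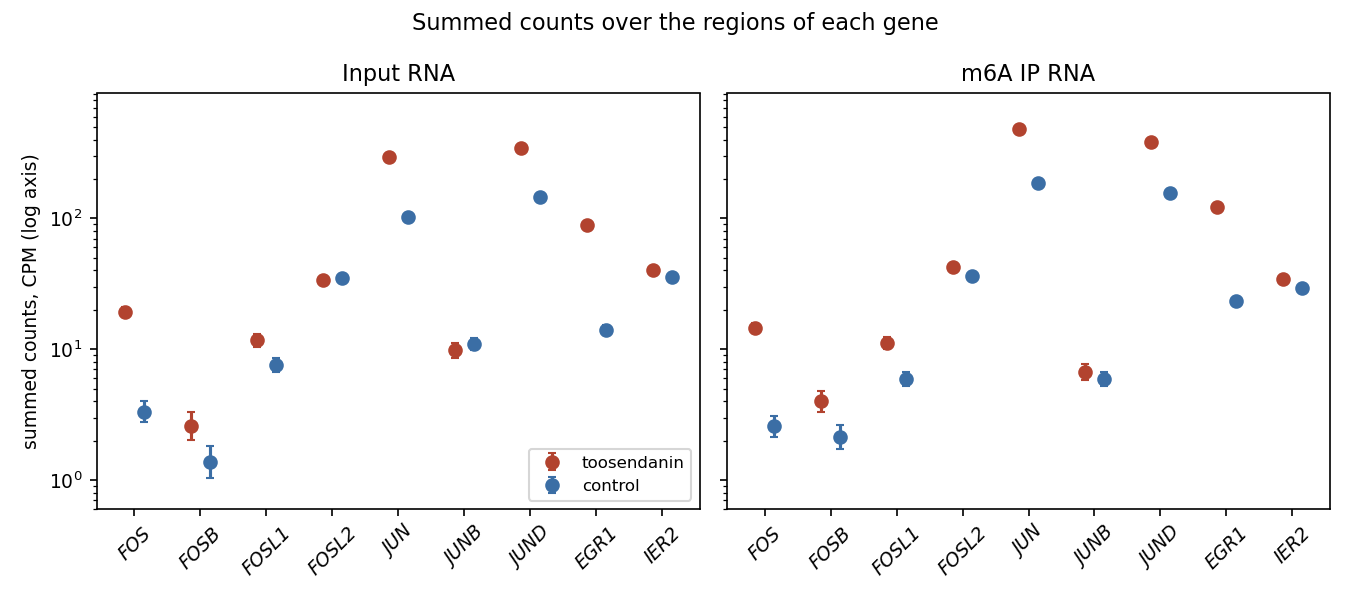
Counts summed over the regions of each gene in input (left) and m6A IP (right), as counts per 1000000 of the column's total (CPM) on a log axis, with 95% counting intervals; toosendanin stands left of control for each gene. EGR1, FOS, JUN and JUND are higher in toosendanin in both panels, from 89.5 against 14.0 input CPM for EGR1 to 345.9 against 146.7 for JUND.

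EGR1 had the largest change of the 9 genes with a p-value. Its summed input counts were 2170 in toosendanin and 478 in control, or 89.5 against 14.0 CPM, and the log2 fold change in the authors' deposited table was 2.62 ± 0.13, or 6.15-fold (DESeq2 adjusted p = 5.68e-84). A larger log2 fold change was listed for 480 of the 16552 genes with an adjusted p in the authors' deposited table, against 526 for FOS and 1008 for JUN. IER2, a nuclear immediate early protein, had 40.2 input CPM in toosendanin and 35.9 in control and stood at 0.23 ± 0.17 (DESeq2 adjusted p = 0.339 in the authors' deposited table). IER3, a regulator of survival and MAP kinase signalling, stood at 0.08 ± 0.15 (DESeq2 adjusted p = 0.78 in the authors' deposited table), with an interval from -0.22 to 0.37.

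Ordered by log2 fold change, EGR1 and FOS were not separable (difference 0.19, 95% interval -0.33 to 0.71, from the authors' deposited table). FOS stood above JUN by 0.99, with a standard error of 0.26 for the difference, in the same authors' deposited table. Below JUN, no neighbours in the order FOSB, FOSL1, IER2, IER3, JUNB and FOSL2 differed beyond their intervals, JUN and FOSB included (0.60, -0.14 to 1.35, from the authors' deposited table). The second view of expression, the centred summed inputs, gave 2.67 for EGR1, 2.54 for FOS, 1.51 for JUN, 0.91 for FOSB, 0.62 for FOSL1, 0.16 for IER2, -0.05 for FOSL2 and -0.16 for JUNB. Each lies within 1 standard error of the deposited value. Both tables may rest on the same input libraries, so this is no independent evidence.

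The 4 genes that rose also had higher summed IP counts, which carry no test. N6-methyladenosine (m6A) is a frequent internal mark of mRNA, and short-lived transcripts are among those known to carry it. Centred on the median gene, summed IP counts were higher on the log2 scale by 2.46 for FOS, 2.36 for EGR1, 1.35 for JUN and 0.88 for FOSL1. FOSB, which did not pass in expression, stood at 0.87 on that scale. EGR1 had 3528 IP counts in toosendanin and 979 in control, FOS 422 and 109, and JUN 14106 and 7852. IP over input, each scaled to its total over the listed regions, then says how strongly a region is pulled down relative to them. A value of 1 is the level over all listed regions together.

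JUN and EGR1 each held a strongly pulled-down region. In JUN, region 2 as listed had 10158 IP and 3354 input counts in toosendanin and 5987 and 1679 in control, or an IP over input of 2.52 in toosendanin and 2.88 in control. In control that ratio was above that of 99.3% of the 24688 regions with an FDR, whose median was 0.884. EGR1 region 3 had 2375 IP and 870 input counts in toosendanin and 657 and 210 in control, a ratio of 2.28 in toosendanin and 2.52 in control. In control it was above that of 98.3% of regions. Region 1 of each gene was not enriched: that of JUN stood at 0.863 in toosendanin and 0.82 in control, and that of EGR1 at 0.735 in toosendanin and 0.973 in control. Region 2 of JUN was thus enriched 2.92 times as much as region 1 in toosendanin and 3.51 times as much in control.

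A region in each of these genes was lower relative to input after toosendanin. By the FDR of the authors' deposited table, 2 of the 18 regions with an FDR, of 30 listed, were lower, beside 6.24% of all 24688, and 0 were higher (0 also at an unadjusted p under 0.05 among these 18), beside 2.71%. JUN region 2 stood at -0.32 ± 0.05 in the authors' deposited table (FDR = 7.96e-09), the error being counting error. EGR1 region 1, which had 1115 IP and 1264 input counts in toosendanin and 315 and 261 in control, stood at -0.54 ± 0.13 in the authors' deposited table (FDR = 0.00164). Both changes were smaller when scaled to totals: -0.19 for JUN region 2 and -0.40 for EGR1 region 1 (adjusted p of the counting test = 0.00326 and 0.0327). Among regions of genes whose expression rose, 6.91% were lower. With the statistic widened for the spread over all regions, JUN region 2 passed (adjusted p of the counting test = 0.00218) and EGR1 region 1 did not.

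**Figure D3:**
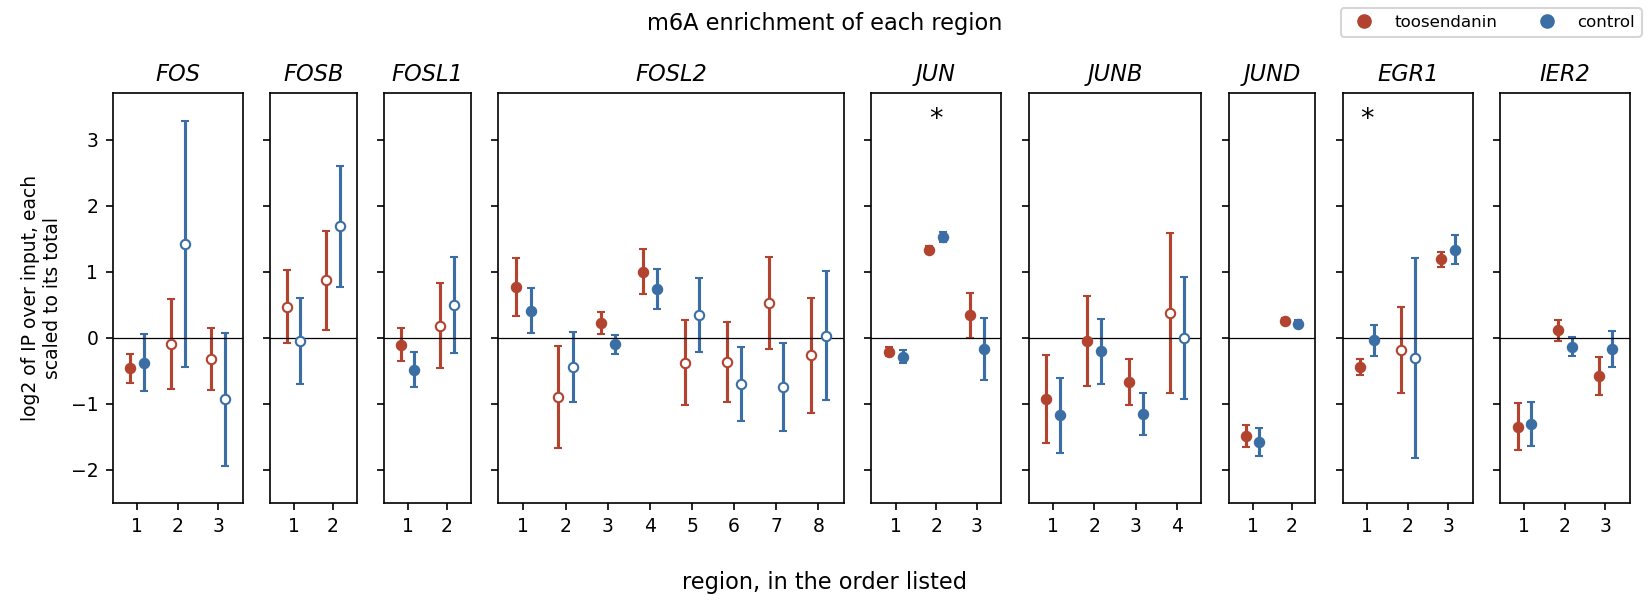
IP over input of each of the 30 regions on the log2 scale, by gene and in the order listed, with 95% counting intervals; toosendanin stands left of control, open points had no FDR and asterisks mark an FDR under 0.05. JUN region 2 and EGR1 region 3 lie above 1 in both conditions, and the asterisks stand over JUN region 2 and EGR1 region 1.

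The decrease was uneven along JUN, in a pair of regions compared after their values were seen. Region 2 minus region 1 gave -0.25 on the log2 scale (counting interval -0.40 to -0.10), and region 1 itself did not pass at -0.07 ± 0.06 in the authors' deposited table (FDR = 0.546). Within EGR1 the difference between region 1 and region 3 was -0.28 with an interval from -0.64 to 0.08, and region 3 stood at -0.26 ± 0.13 in the authors' deposited table (FDR = 0.199). Summed over the regions of a gene and scaled to totals, IP over input was 1.36 in toosendanin and 1.65 in control for EGR1 (log2 difference -0.29, -0.46 to -0.11) and 1.65 in toosendanin and 1.81 in control for JUN (-0.13, -0.20 to -0.06).

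Summed over its regions, FOS was not pulled down above the level of all listed regions together. Its best-counted region, region 1, had 315 IP and 362 input counts in toosendanin and 86 and 90 in control, a ratio of 0.725 in toosendanin and 0.771 in control, and stood at -0.22 ± 0.24 in the authors' deposited table (FDR = 0.662). Regions 2 and 3 of FOS had no FDR. Summed, FOS stood at 0.752 in toosendanin and 0.778 in control, a log2 difference of -0.05 with an interval from -0.47 to 0.37, which holds the value of EGR1, so a difference between these genes was not detectable at this depth.

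FOSL2 went the other way from EGR1 and JUN when its regions were summed and scaled to totals. Its 8 regions gave an IP over input of 1.24 in toosendanin and 1.03 in control (log2 difference 0.28, 0.11 to 0.44, adjusted p of the counting test per gene = 0.0127). That test held counting error only and was not widened for the spread over all regions. Changes scaled to totals also lie above the deposited ones. None of the single regions of FOSL2 passed in the authors' deposited table. The best-counted, region 3, had 696 IP and 498 input counts in toosendanin and 862 and 743 in control. It stood at 0.17 ± 0.11 in the authors' deposited table (FDR = 0.367), against 0.32 scaled to totals. FOSL2 region 7, with no FDR and named after its value was seen, stood at 1.19 ± 0.49 in the authors' deposited table (unadjusted p = 0.0158). It had 45 IP and 26 input counts in toosendanin and 31 and 42 in control. Regions 2, 5 and 8 of FOSL2, also with no FDR, had negative changes of -0.59 ± 0.48, -0.83 ± 0.44 and -0.43 ± 0.67 in the authors' deposited table.

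JUND, IER2, JUNB, FOSL1 and FOSB had no region past the FDR. JUND region 2, with 10653 IP and 7443 input counts in toosendanin and 6336 and 4397 in control, stood at -0.09 ± 0.04 in the authors' deposited table (FDR = 0.0731), while its IP over input was 1.19 in toosendanin and 1.16 in control. The deposited changes lie a median of 0.09 below those scaled to totals. Of the 18 regions with an FDR, 9 had a negative change as deposited and 6 after scaling to totals. IER2 region 2, its best-counted, stood at 0.11 ± 0.11 in the authors' deposited table (FDR = 0.604), whereas region 3 stood at -0.55 ± 0.20 (FDR = 0.0654 in the authors' deposited table). The difference between these IER2 regions was -0.66 (counting interval -1.10 to -0.21), in a pair compared after its values were seen. The best-counted regions of JUNB (region 3, 0.34 ± 0.24) and FOSL1 (region 1, 0.23 ± 0.19) had FDRs of 0.441 and 0.498 in the authors' deposited table, and that of FOSB (region 1, 0.38 ± 0.43) had none. IER3 had no region, as did 2.91% of the 3991 genes with a mean normalized count at least as high.

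The genes around these factors were described from 7 lists with 108 genes in all, of which 100 had an adjusted p. The lists were written with earlier results of these data known, so their shares are no test. On the DESeq2 adjusted p in the authors' deposited table, higher genes numbered 31 of the 100 and lower ones 16, beside the 15.7% of all genes in each direction. Of the basic leucine zipper proteins that can pair with AP-1 subunits or share its sites, 5 of 12 were higher and 0 lower in the authors' deposited DESeq2 table (0 lower also at an unadjusted p under 0.05), with a list median of 0.28. Of the small MAF proteins, which lack a transactivation domain, MAFK stood at 1.35 ± 0.13 and MAFG at 1.58 ± 0.23 in the authors' deposited table. MAFF, also a small MAF protein, did not pass at -0.10 ± 0.37. The stress-induced ATF3 stood at 1.41 ± 0.15 and MAF at 2.45 ± 0.38 in the authors' deposited table. ATF2, a constitutive JUN partner, at 0.27 ± 0.17 and ATF7 at 0.09 ± 0.11 missed the threshold in the authors' deposited table.

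**Figure D4:**
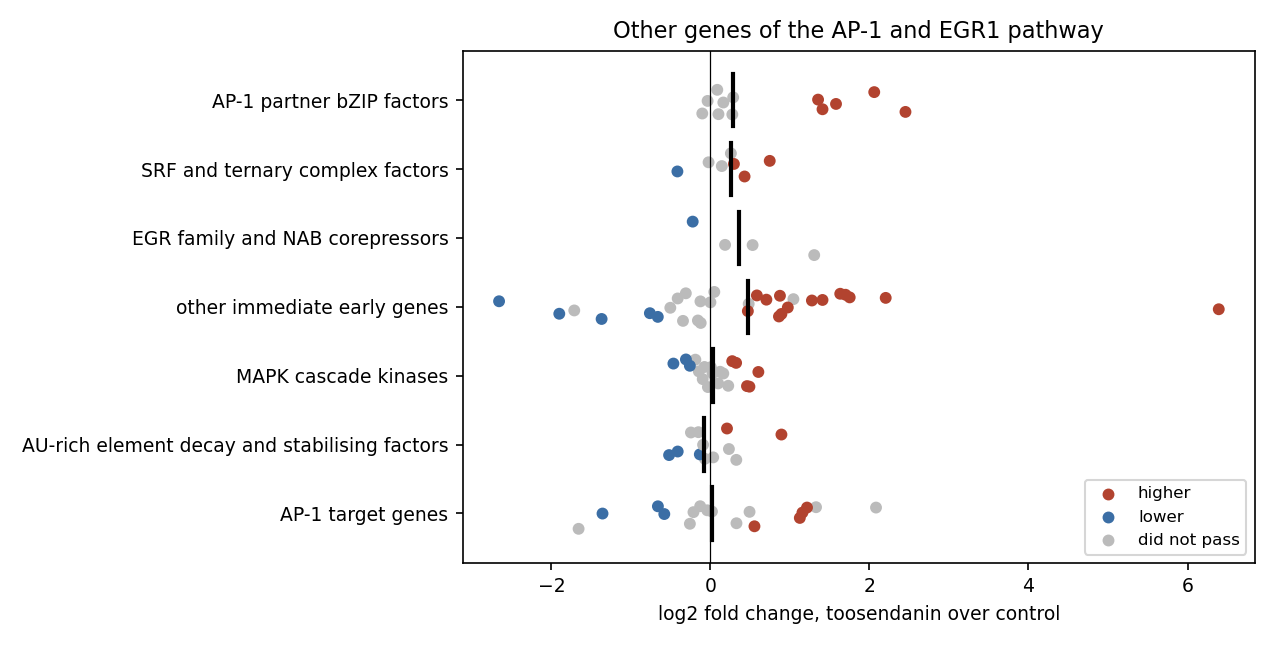
Log2 fold change of the authors' deposited table for each listed gene with an adjusted p, by list; red points were higher, blue lower and grey did not pass, and black bars give list medians. The medians lie between -0.08 and 0.47, and ATF3 and ZFP36 each appear in more than 1 list.

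Upstream, kinase transcripts went both ways by small amounts. Of 19 MAP kinase cascade genes with an adjusted p, 5 were higher and 3 lower in the authors' deposited table, with a list median of 0.03. Over all genes the share was 15.7% in each direction, and the share of lower kinase genes was near it. The kinase gene MAPK3, which encodes ERK1, stood at 0.49 ± 0.12, the ERK-activated kinase RPS6KA1 at 0.60 ± 0.10 and its relative RPS6KA3 at -0.31 ± 0.05 in the authors' deposited table. MAP2K1 at -0.10 ± 0.08 and MAP2K2 at 0.12 ± 0.08, the kinases that activate ERK, missed the threshold in the authors' deposited table. Of SRF, its ELK and MRTF partners and FHL2, 3 of 7 were higher and 1 lower in the authors' deposited table, with a median of 0.26. SRF itself, which binds CArG boxes, was the gene that was lower, at -0.42 ± 0.10, against ELK3 at 0.75 ± 0.22, MRTFA at 0.43 ± 0.13 and MRTFB at 0.30 ± 0.08 in the authors' deposited table; ELK4 at 0.26 ± 0.12 and ELK1 at 0.14 ± 0.36 did not pass.

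Beside EGR1, its relatives were barely counted. EGR4 was listed at 0, EGR2 had a mean normalized count of 5.31 and EGR3 one of 19.3 with 1.30 ± 0.74 in the authors' deposited table, which did not pass. The corepressor NAB1, which binds EGR1, was lower at -0.22 ± 0.07, and NAB2, itself a target of EGR1, stood at 0.18 ± 0.20 in the authors' deposited table. NAB1 was the 1 called gene among the 4 with an adjusted p in that list, whose median was 0.36, beside 15.7% of all genes in each direction.

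Other immediate early genes went both ways: 14 of 31 were higher and 5 lower in the authors' deposited table, beside 15.7% of all genes in each direction. The list median was 0.47, and the share of lower genes was near that over all genes. The MAP kinase phosphatase DUSP1 stood at 1.70 ± 0.12 and the zinc finger factor KLF6 at 1.63 ± 0.15 in the authors' deposited table. The matricellular protein CCN2, at -2.66 ± 0.09, and the ERK phosphatase DUSP6, at -1.37 ± 0.10, were lower in the authors' deposited table. The growth regulator MYC at -0.12 ± 0.07 and the survival factor MCL1 at 0.05 ± 0.41 missed the threshold in the authors' deposited table.

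Among factors that bind or degrade mRNAs with AU-rich elements, which shorten the life of FOS mRNA, 2 of 12 were higher and 3 lower in the authors' deposited table. Beside this stood 15.7% of all genes in each direction, near the share of higher genes here. The list median was -0.08. ZFP36, which recruits deadenylases and is itself an immediate early gene, stood at 0.89 ± 0.17 and the deadenylase PARN at 0.21 ± 0.08 in the authors' deposited table. HNRNPD, or AUF1, at -0.52 ± 0.07 and the AU-binding hydratase AUH at -0.41 ± 0.13 were lower in the authors' deposited table, while the deadenylase complex genes CNOT1 at -0.09 ± 0.07 and CNOT7 at -0.25 ± 0.14 did not pass.

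Genes known as AP-1 targets showed no common direction. Of 17 with an adjusted p, 4 were higher and 3 lower in the authors' deposited table, beside 15.7% of all genes in each direction. The share of lower targets was near that over all genes. The list median was 0.02, and VIM and IL6 were among those listed at 0. The protease inhibitor TIMP1 at 1.21 ± 0.17, the chemokine CXCL8 at 1.12 ± 0.17 and the cytokine TGFB1 at 0.55 ± 0.09 were higher, and SPP1, or osteopontin, was lower at -1.36 ± 0.07, in the authors' deposited table. The quinone reductase NQO1 at -0.21 ± 0.16 and the vascular growth factor VEGFA at 0.02 ± 0.12 missed the threshold in the authors' deposited table.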

How the data were processed

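Both files are tables of the authors' own comparison of toosendanin with control. The expression file holds, per the file headers, a mean normalized count per gene (a signal computed by the authors over libraries), the authors' log2 fold change and standard error, a Wald score, and a deposited p-value and adjusted p. The m6A file holds whole-number counts per region that the authors summed over the libraries of a condition, a log2 change of IP over input, and a p-value with its FDR. The submitters' processing notes name HISAT2, StringTie and DESeq. Not given in the sources used here are the genome build, annotation, region caller and the libraries compared. The design foresaw tests on deposited values where no counts per library were at hand, so nothing was refitted. Calls were taken at a deposited adjusted p or FDR under 0.05.

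A positive expression change means higher after toosendanin, since over 8933 well-counted genes it had a Pearson r of 0.936 with the log2 ratio of summed inputs, across genes. The deposited m6A p-values match the Poisson error of the summed counts within 1% in 99.5% of 45783 regions, so they hold counting error only and no spread between libraries. Summed counts were scaled to the total of their column or centred on a median over genes. For input, that median covered 10899 genes with at least 50 summed input counts in both conditions. For IP, it covered the genes with at least 50 summed IP counts in both conditions. Intervals are 95%. The counting test used for the alternatives was tested on simulated data. Promoters are those of RefSeq (GRCh38.p14), 250 bases before to 50 after the start, and 8 of 10 genes matched by symbol.

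The genes described and the lists were chosen with earlier results of these data known. Outside the 10 genes, those named are per list up to 4 called genes with the smallest adjusted p and up to 2 uncalled genes with the largest mean. A few genes that this rule or the lists would name are not reported here. Any other gene named was chosen after its values were seen. Genes of like pattern are not named, since there is 1 contrast and no value per library. Scripts ran in Python 3.11.15 with pandas 2.3.3, numpy 2.4.6, scipy 1.17.1 and matplotlib 3.10.9.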

Additional observations from a re-analysis of the deposited data

How the results depend on the processing

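The count of higher members was 4 as reported, 3 at an adjusted p under 0.01 or with a change of at least 2-fold, and 4 among the upper 50% of means or adjusted over every p-value; the count of lower members was 0 in each. FOSL1 is the gene lost at 0.01. Of the lists' genes, 31 higher and 16 lower became 27 and 15 at 0.01 and 23 and 16 among the upper 50% of means. For m6A, 2 regions were lower as reported, but 1 with the widened statistic and 1 among regions enriched in control, where only JUN region 2 was called; EGR1 region 1 is not enriched in control and so left the test. Against 0 higher regions as reported, 1 was higher after scaling to totals (FOSL2 region 3, at 0.32) and 1 gene, FOSL2, when counts were summed per gene. The shift of the deposited scale against totals is given with JUND. Under the other m6A alternatives the counts were 2 lower and 0 higher. On the gene's strand only, the ETS core was found in 1 promoter and the cAMP response core in 4. The comparisons with summed inputs scaled to totals and with summed IP counts were added after the data were seen; the summed IP counts moved FOSL1 to 0.88, FOSL2 to 0.20 and EGR1 to 2.36. No paired analysis was possible because the files hold no values per library, and for the same reason no replicate was left out. The depth of single libraries is unknown, and the 12 regions without an FDR are limited by their counts.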
